A study of Mus musculus with 10 samples.

Results

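Mitophagy is the removal of damaged or surplus mitochondria by autophagy, in which a membrane grows around the organelle and delivers it to the lysosome. One route marks mitochondria through receptors in their outer membrane, such as *Bnip3*, *Bnip3l* and *Fundc1*, and another through the kinase *Pink1* and the tagging of mitochondria with ubiquitin. Cargo receptors (*Sqstm1*, *Optn*) link ubiquitin-tagged cargo to the LC3 proteins on the membrane (*Map1lc3a*, *Map1lc3b*), and the kinase *Ulk1* starts the process. Genes were chosen by their symbol in the array's annotation, which gave 10 of the 34797 symbols named there, and these 9 are reported. They are measured by 15 probes in 24 spots per array: 6 genes have 1 probe each, *Bnip3* has 3, *Bnip3l* has 4 and *Sqstm1* has 2. The *Map1lc3b* probe is printed in 10 spots, whose mean was used.

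RNA came from the epididymal white adipose tissue (eWAT) of 10 adult male wild-type C57BL/6JOlaHsd mice (strain C57BL/6J in another label) of 1 group, "HFD, DFO injected". All of them had 3 weeks of purified low fat diet and then 12 weeks of BIOCLAIMS high-fat diet at 29°C, and received desferrioxamine (DFO), an iron chelator, at 100 mg/kg body weight every day for 5 days. On day 6 they were killed after food had been withheld for 2 h. Each mouse was hybridised once in Cy5 against the same Cy3 pool of RNA from all mice of the wider study, control mice included. The pool is no control group and the dyes were not swapped, so a log2 ratio of mouse over pool describes a mouse and was not tested against 0. Mice that received no DFO were not analysed here, so no value below can be read as an effect of DFO.

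The number of arrays and the margin of signal over background limit the precision. In the Cy5 channel the median spot signal of an array was 53 to 79 and the median local background 32 to 37, and no spot was saturated. All 10 adipocyte markers were expressed, that is well above background in both dyes on at least 5 arrays, as were 25137 of 55681 probes. The first principal component of those probes took 76.2% of the variance between mice and set mice 4, 5, 6 and 7 apart from the other 6 (76.2% also without the member probes). In these 4 mice the mean log2 ratio of the 10 adipocyte markers lay between -2.34 and -1.37, against -0.16 to 0.67 in the other 6, and that of the 10 macrophage markers between 0.86 and 1.15, against -1.40 to -0.18. The labels give no difference between the 10 mice, so these 4 are no treatment group. They are named only to say whose values were low or high, with no test between them and the rest. The part of cell composition in the values below was not tested, and in bulk tissue fewer cells of a type and less RNA per cell cannot be told apart.

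Sequences are shown for 3 probes and 1 promoter, because they say what was measured for the most variable receptor gene and for both cargo receptors. The probes are 60 bases long, in the sense of the transcript, and their positions are those of the array's mm9 annotation on the minus strand. The printed *Bnip3* stretch holds bases 18 to 47 of the probe at chr7:146082640-146082699, with a polyadenylation motif (AATAAA) in capitals. The *Sqstm1* probe lies at chr11:50015985-50016044 and the *Optn* probe at chr2:4954187-4954246. The files do not say which exon or transcript part a probe covers.

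Bnip3 probe, 30 bases: caggtgtgctaaAATAAAagtgacatttta
Sqstm1 probe: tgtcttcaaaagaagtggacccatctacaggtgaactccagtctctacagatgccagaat
Optn probe: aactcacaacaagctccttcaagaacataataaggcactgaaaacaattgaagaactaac

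*Bnip3* is a well known target of the hypoxia-inducible factors, whose degradation needs iron. Its promoter is therefore shown, as the 250 bases before its start in RefSeq (GRCm38.p6, chr7:138909507-138909756, minus strand). Capitals mark each match to ACGTG or GCGTG on either strand, the core letters of the element these factors bind. Overlapping matches are joined, as in CACGTG.

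Bnip3 promoter: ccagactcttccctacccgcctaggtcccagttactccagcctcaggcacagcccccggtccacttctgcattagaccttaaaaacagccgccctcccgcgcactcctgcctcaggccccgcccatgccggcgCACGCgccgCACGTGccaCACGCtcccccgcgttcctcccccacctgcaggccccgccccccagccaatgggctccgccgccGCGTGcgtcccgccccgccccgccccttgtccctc

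The window holds 4 separate stretches, which begin 117, 108, 99 and 35 bases before the start. Of 32851 RefSeq promoter windows of this length, 38.6% hold at least 1 such stretch and 1.49% hold at least 4. The *Bnip3* window is 72.4% G and C, and these shares take no account of base composition. Promoters of 7 of the 9 members were in the table, and 5 of these hold a match. *Map1lc3b* has 5 stretches, *Optn* 2, *Pink1* and *Ulk1* 1 each, and *Fundc1* and *Sqstm1* none. A match is a run of letters and no evidence of binding.

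The first question the design allows is which transcripts vary more over the arrays in the mice than in the same pool. Each mouse was a separate RNA sample and the pool a common one. Differences in tissue sampling and RNA preparation therefore also enter the Cy5 variance, and each side was measured in 1 dye only. All 15 member probes were expressed, and 13 had a larger variance in Cy5 than in Cy3 and none a larger one in Cy3 (Pitman-Morgan test for paired variances, 10 arrays, adjusted p under 0.05 over all expressed probes). Among all expressed probes the share with a larger variance in Cy5 was 59.6%. By the probe with the highest mean Cy5 signal, each of the 9 genes was called. In the 6 mice other than 4, 5, 6 and 7 alone, 1 member probe was called (*Bnip3l*), against 13.7% of all expressed probes. Mice 4, 5, 6 and 7 were set apart by the values of these same arrays, so leaving them out lowers the variance of many probes. Nothing is read from the loss of calls, and the smaller number of mice also lowers the power of the test. With slide as a block 8 member probes were called, and they belong to *Bnip3*, *Bnip3l*, *Pink1*, *Sqstm1* and *Map1lc3a*, where 40.8% of all expressed probes were called.

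**Figure D1:**
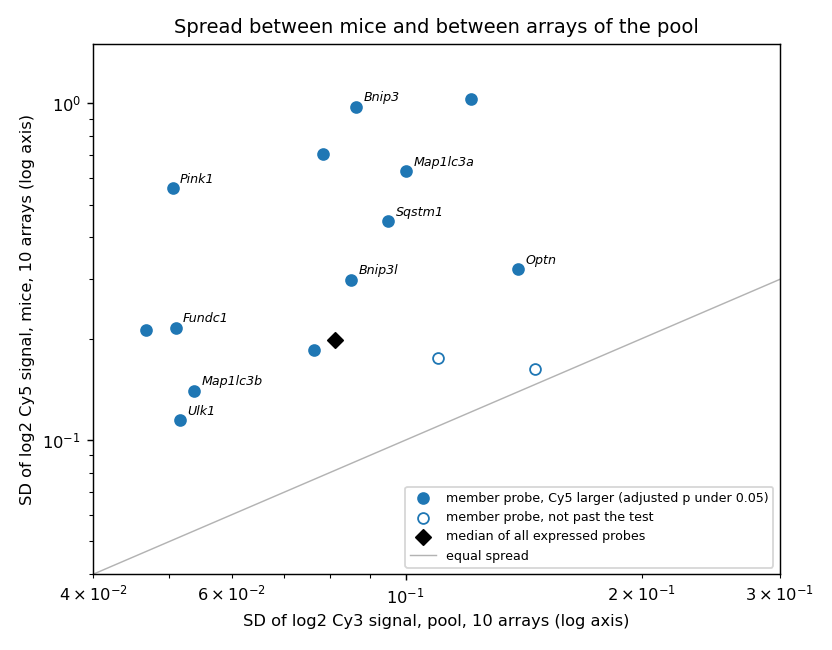
Standard deviation of the log2 signal of each expressed member probe over 10 arrays, with the pool (Cy3) on the horizontal and the mice (Cy5) on the vertical log axis. Filled points passed the variance test, open points did not, and the diamond is the median of all expressed probes. All 15 member probes lie above the line of equal spread, as do 93.7% of all expressed probes.

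*Bnip3*, an outer membrane receptor of mitophagy, varied most among the members. The log2 ratio of its brightest probe ran from -1.72 over a median of 0.19 to 0.58, a 4.93-fold range between mice. The lowest 4 values were -1.68, -1.41, -0.75 and -1.72 in mice 4, 5, 6 and 7, and the other 6 mice lay between 0.16 and 0.58. Its Cy5 signal had an SD of 0.98 on the log2 scale against 0.09 for the pool (Pitman-Morgan adjusted p = 3.94e-06), and 1.51% of all expressed probes had a larger SD of the log2 ratio. On the slides that hold mice from both sides, the log2 ratio of mouse 4 minus that of mouse 3 was -1.89 (slide 2) and that of mouse 7 minus mouse 8 was -2.26 (slide 4). The other *Bnip3* probes gave the same 4 mice the lowest values, with a range of 6.21-fold for the probe at chr7:146082760-146082819 and of 3.64-fold for the one at chr7:146082536-146082595. The latter was much dimmer, with a Cy5 signal of 173 to 636, against 4943 to 27803 for the brightest probe.

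The 15 genes of a list of hypoxia-responsive genes were all expressed, and their mean log2 ratio stayed between -0.14 and 0.14 in every mouse. The mean is taken over genes that ran in opposite directions. Among all expressed probes, 23.2% had their lowest 4 values in mice 4, 5, 6 and 7 and 19.2% their highest 4. Of the 15 genes, 5 had their lowest 4 values there and another 5 their highest 4. Among the former were *Vegfa*, a growth factor for vessels (-1.02 to 0.67), and *Ndrg1* (-1.13 to 0.67). Among the latter were *Slc2a1*, a glucose transporter (-0.47 to 1.45), and *Pdk1* (-0.29 to 0.48).

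*Bnip3l*, the receptor that clears mitochondria from maturing red blood cells, ran the other way and over a smaller range. Its brightest probe (chr14:67606210-67606269) ran from -0.28 over 0.04 to 0.58, a 1.82-fold range. The highest 4 values were 0.58, 0.17, 0.24 and 0.24 in mice 4, 5, 6 and 7, with the others between -0.28 and 0.05 (adjusted p = 0.000271). Mouse 4 was 0.86 above mouse 3 on their slide, and mouse 7 was 0.27 above mouse 8 on theirs. The probes at chr14:67606311-67606370 and chr14:67606087-67606146 also had their 4 highest values in these mice. The probe at chr14:67604077-67604136 ran from 0.07 to 0.41 and did not pass the test (adjusted p = 0.154). Mouse 3, at 0.28, overlapped with mouse 7, at 0.24. Of 7 red blood cell markers 4 were expressed, and their mean log2 ratio lay between -1.97 and -1.33 in mice 4, 5, 6 and 7 and between -0.84 and 0.52 in the others.

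*Fundc1*, the third outer membrane receptor, had 1 probe (chrX:17133867-17133926), which ran from -0.28 over 0.08 to 0.33, a 1.52-fold range (adjusted p = 0.00138). Mice 4, 5, 6 and 7 held the highest 4 values, 0.32, 0.24, 0.33 and 0.32, and mouse 2 came next at 0.16. The call was lost with slide as a block.

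*Pink1*, the kinase that accumulates on damaged mitochondria, ran from -1.10 over -0.19 to 0.41, a 2.86-fold range (chr4:137869327-137869386, adjusted p = 4.38e-06). Its values were -0.70, -0.82, -0.72 and -1.10 in mice 4, 5, 6 and 7, and 0.41, 0.37 and 0.40 in mice 8, 9 and 10. Mouse 3 stood between them at -0.31. The difference was -0.39 within slide 2 (mouse 4 minus 3) and -1.51 within slide 4 (mouse 7 minus 8).

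Of the cargo receptors, *Sqstm1*, which encodes p62, ran from -0.50 over -0.19 to 0.56 at the probe printed above, a 2.09-fold range (adjusted p = 0.000139). The highest 4 values were 0.56, 0.30, 0.11 and 0.28 in mice 4, 5, 6 and 7, and mouse 2 came next at -0.05. Mouse 4 was 1.03 above mouse 3 and mouse 7 was 0.63 above mouse 8 within their slides. The second *Sqstm1* probe (chr11:50012868-50012927) was well above background in Cy5 on 8 arrays and in Cy3 on 7. Its Cy5 signal was only 86 to 124, against 670 to 1651 at the printed probe. Its values ran from -0.25 to 0.12 (Pitman-Morgan adjusted p = 0.749), with an SD of 0.16 in Cy5 and 0.15 in Cy3. At so low a signal it cannot show how far this gene varied, so the spread of *Sqstm1* rests on 1 probe. *Optn* ran from -0.52 over -0.13 to 0.37, a 1.85-fold range, with -0.52, -0.48, -0.22 and -0.50 in mice 4, 5, 6 and 7 and -0.18 in mouse 10 as the nearest value. Its adjusted p of 0.0415 was lost without any 1 of mice 1, 3, 4, 5, 6, 7 or 9.

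The LC3 genes encode the proteins that coat the growing membrane. *Map1lc3a* (chr2:155103435-155103494) had 2 separate sets of values. It lay between 0.17 and 0.33 in 6 mice, with an SD of 0.07, and at -0.87, -0.95, -0.58 and -1.13 in mice 4, 5, 6 and 7. The whole range was 2.75-fold (adjusted p = 9.67e-05), and the within-slide differences were -1.04 and -1.46. *Map1lc3b* (chr8:124121771-124121830) ran from -0.06 over 0.20 to 0.38, a 1.36-fold range (adjusted p = 0.0232, lost without any 1 of mice 7, 8 or 10). Its lowest 4 values were also in mice 4, 5, 6 and 7, between -0.06 and 0.05, but mouse 3 lay close at 0.16.

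*Ulk1*, the initiating kinase, had the narrowest range among the members tested by their brightest probe. It ran from -0.20 in mouse 3 over 0.01 to 0.17 in mouse 4 (chr5:111213514-111213573), and mice 4, 5, 6 and 7 overlapped with the others. Its adjusted p of 0.0448 was lost without any 1 of mice 1, 3, 4, 5, 7, 8 or 10.

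**Figure D2:**
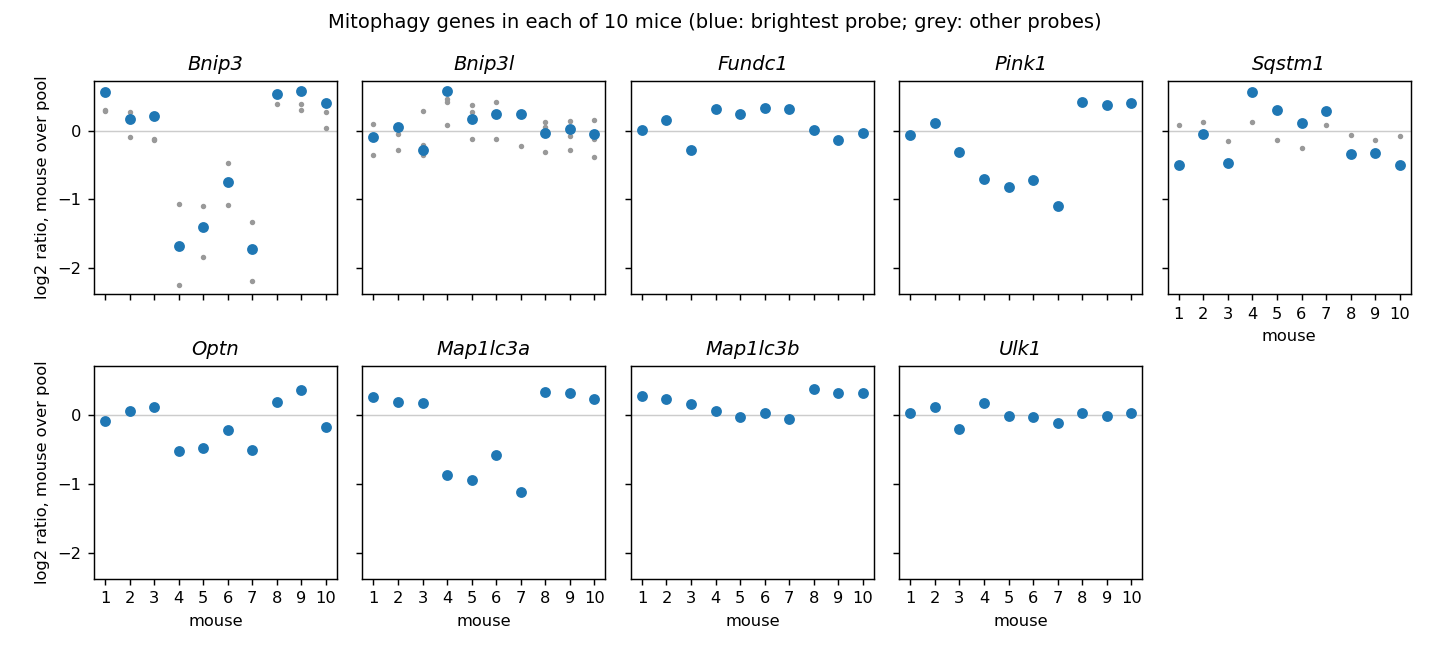
Log2 ratio of mouse over pool for the 9 genes in each of 10 mice, with the probe of highest mean Cy5 signal in blue and other expressed probes in grey. *Bnip3*, *Pink1* and *Map1lc3a* lie at -0.58 or below in mice 4, 5, 6 and 7 in their blue probes, while *Sqstm1* and *Bnip3l* are highest there and *Ulk1* stays between -0.20 and 0.17.

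By their brightest probes, 5 of the 9 genes had their 4 lowest values in mice 4, 5, 6 and 7 (*Bnip3*, *Pink1*, *Optn*, *Map1lc3a* and *Map1lc3b*), 3 had their 4 highest values there (*Bnip3l*, *Fundc1* and *Sqstm1*), and *Ulk1* overlapped. Over the 15 member probes, 7 were lowest and 5 highest there, and 3 overlapped. Among all expressed probes the shares were 23.2% and 19.2%. With the deposited normalized values 3 genes were lowest there, without *Pink1* and *Map1lc3b*, and *Bnip3l*, *Fundc1* and *Sqstm1* were again highest. With median centring in place of loess no gene was lowest there and 2 were highest. That scaling shifted all expressed probes to a median of 0.36 in log2 ratio and left array medians from -0.14 in mouse 3 to 0.53 in mouse 7, and relative to each array's median *Bnip3*, *Optn* and *Map1lc3a* were again lowest and *Bnip3l*, *Fundc1* and *Sqstm1* highest in these 4 mice.

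**Figure D3:**
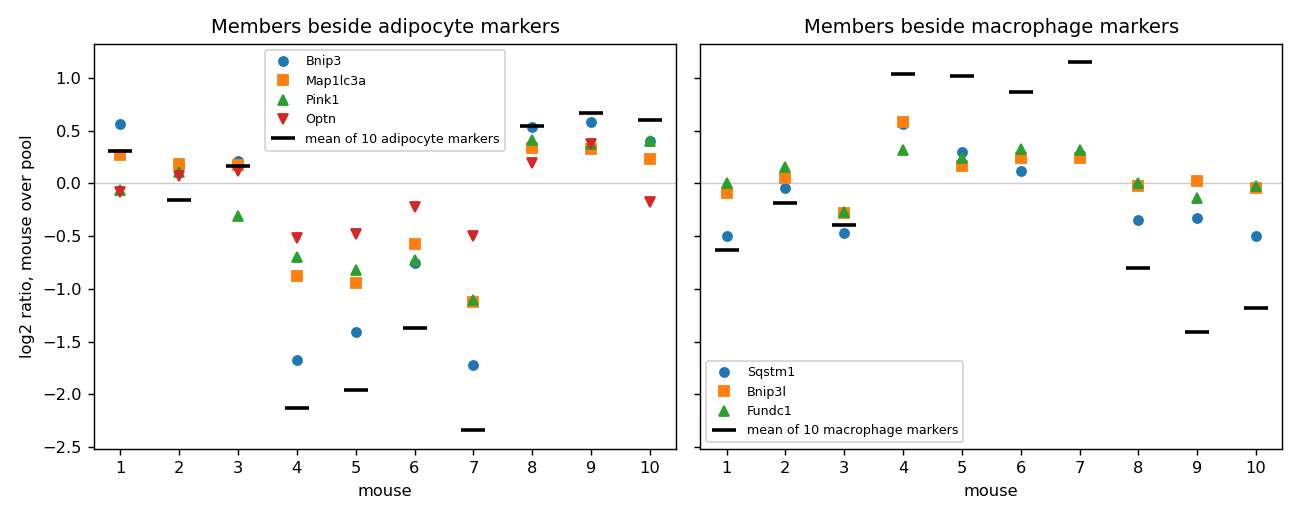
Log2 ratio of mouse over pool by mouse, with 4 members beside the mean of 10 adipocyte markers on the left and 3 members beside the mean of 10 macrophage markers on the right. In mice 4 to 7 the adipocyte mean is at most -1.37 and the macrophage mean at least 0.86. Each side shows only members with their extreme values in these mice and in the direction of its markers. *Map1lc3b* and *Ulk1* are not drawn. The members were placed by direction, so their likeness to the markers is no test of a relation.

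Of the other cell type lists, mesothelium and endothelium had lower means in the same mice. All 7 mesothelium markers were expressed, and 4 of them had their 4 lowest values in mice 4, 5, 6 and 7, with list means between -1.65 and -1.15 in mice 4, 5, 6 and 7 and between -0.60 and 0.23 in the others. Of the 6 endothelium markers 5 did, and the list means were between -0.68 and -0.41 there, against -0.01 to 0.28. Among all expressed probes, 23.2% had their 4 lowest values in these mice. Of 10 genes of sperm and epididymis 3 were expressed, and mice 4, 5, 6 and 7, with means from -2.79 to -2.27, overlapped with the others, from -2.67 to -1.02 with mouse 2 highest.

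To see whether members went together among mice that do not lie apart, 9 fixed pairs were compared over mice 1, 2, 3, 8, 9 and 10. None passed after adjustment over the 9 pairs and both coefficients (2-sided exact permutation tests), and 1 had an unadjusted p under 0.05. The strongest was *Map1lc3a* with *Map1lc3b* (r = 0.90, exact p = 0.0111, rho = 0.94, exact p = 0.0167, adjusted p = 0.15 for both, 6 mice). Without the 2 mice farthest from the median of *Map1lc3a*, r was 0.80 over 4 mice. The other 8 pairs had exact permutation p-values of at least 0.0917. The pairing of *Sqstm1* with *Map1lc3b* gave r = -0.04. *Bnip3* with *Bnip3l* gave r = 0.26, *Sqstm1* with *Optn* 0.37 and with the macrophage list 0.40, and *Bnip3l* with the red blood cell list 0.74. Without the 2 farthest mice both list relations turned sign, to -0.33 and -0.14 over 4 mice. *Bnip3* with the mean of the hypoxia list gave r = -0.01, which became 0.93 over 4 mice without the 2 farthest and so rests on those mice. *Map1lc3a* and *Pink1* had r of 0.75 and 0.64 with the mean of the adipocyte list (exact p = 0.0917 and exact p = 0.183, adjusted p = 0.544 for both).

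Slide was the only batch that the headers give, with 2 mice on each of 5 slides. No member probe and 0% of all expressed probes were called for a difference between slides (limma moderated F test). Of 25137 probes, 0 passed an adjusted p of 0.05 and 1014 had an unadjusted p under 0.05. Slides 2 and 4 each hold a mouse set apart and another mouse, so that difference counts as spread within slides. With 2 mice per slide the test had little power, and the count of 0 does not show that the slides were alike. Slide 3 holds mice 5 and 6, so for these the slide cannot be told apart from what sets them apart.

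Of 63 other autophagy and mitophagy genes, 62 were expressed, and 41 had a larger variance in Cy5 and none in Cy3, beside 59.6% of all expressed probes, so nothing particular to these genes is read from the count. The median SD of their log2 ratio was 0.16, against 0.31 for the 9 members, each by its brightest probe. Over probes it was 0.24 for the 15 member probes and 0.18 for all expressed probes. The genes of lysosomal biogenesis and fusion varied most by the median (0.30), with 9 of 10 called. The calls came to 6 of 15 for initiation and nucleation, 9 of 12 for LC3 conjugation, 2 of 5 for cargo receptors and their kinase, and 15 of 20 for the outer membrane and ubiquitin pathway genes. *Atg4a*, a protease that processes LC3, was the gene not expressed.

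The largest SDs were those of *Mitf* (0.79), *Mfn2* (0.57) and *Nipsnap1* (0.49). *Mitf*, a transcription factor of the family that controls lysosomal genes, lay between 0.89 and 1.22 in mice 4, 5, 6 and 7 and between -0.77 and -0.08 in the others. *Mfn2*, an outer membrane protein of mitochondrial fusion, lay between -1.12 and -0.68 there and between -0.30 and 0.37 in the others. *Nipsnap1*, a mitochondrial protein that recruits autophagy receptors, lay between -0.82 and -0.40 and between 0.08 and 0.72. The smallest SDs were those of *Becn1* (0.04) and *Pik3r4* (0.05), both parts of the lipid kinase complex that nucleates the membrane, and of *Phb2* (0.07), an inner membrane receptor. None of these 3 passed the variance test (adjusted p = 0.309, 0.777 and 0.155).

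**Figure D4:**
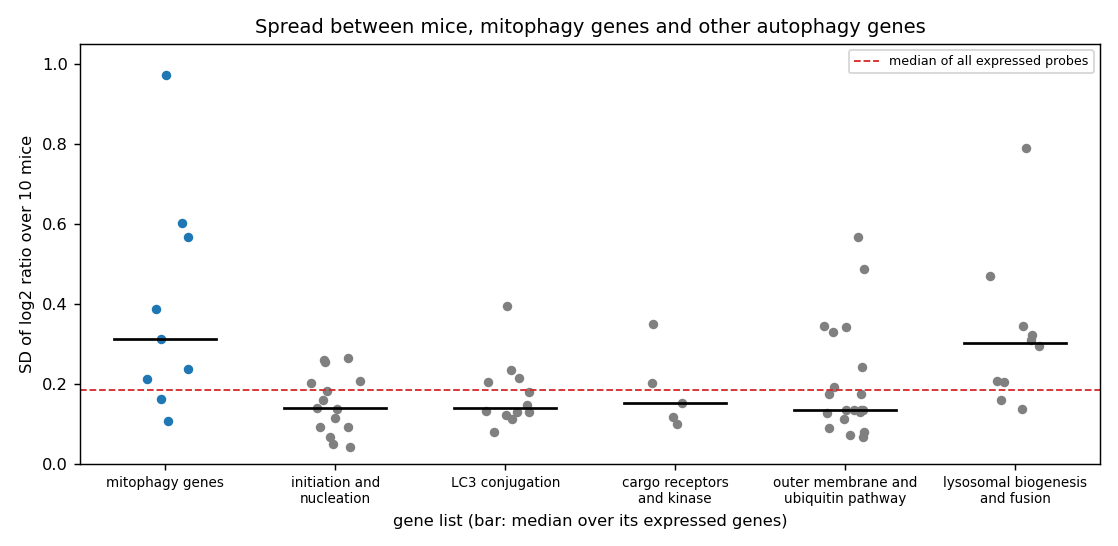
Standard deviation of the log2 ratio over 10 mice for each expressed gene, by gene list, with a bar at the median of each list and a dashed line at the median of all expressed probes (0.18). *Bnip3* at 0.97 is the highest point, and the medians of the mitophagy genes (0.31) and of the lysosomal list (0.30) lie above the dashed line.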

How the data were processed

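Total RNA of 10 mice was measured on 2-colour Agilent arrays of 60-base probes. The authors deposited 1 scanner file per array, written by Agilent Feature Extraction 10.7.3.1 per the submitters' processing notes and holding spot and background intensity in each dye, without normalization, and a log10 ratio of Cy5 over Cy3 after the software's own correction. The authors also deposited a table of log2 values for 30733 spots, whose normalization is not given in the sources used here. Its columns had medians between 8.39 and 8.44 and followed log2 Cy5 (r of 0.996 to 0.998), so higher means more RNA. It served only as an alternative.

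Intensity was corrected with normexp (offset 50), by loess within arrays and, for single channels, Aquantile between arrays (limma 3.58.1, R 4.3.3). Control and outlier spots were left out and spots of a probe averaged. A probe counted as expressed when well above background in both dyes on at least 5 arrays, with values on at least 8. The SDs of log2 Cy5 and Cy3 were compared with the Pitman-Morgan test, Benjamini-Hochberg adjusted over all expressed probes, and slides with limma's moderated F test. Relations between genes were restricted to a cluster of at least 6 mice where the largest gap along the first component, with 3 or more mice on each side, reached 0.4 of its range. Scripts were tested on simulated data. A gene is represented by its expressed probe with the highest mean Cy5 signal. All reported members were named, and of the other pathway genes the 3 with the highest and the 3 with the lowest SD and those with 1 mouse far from the rest. The hypoxia genes given as examples were chosen after their values were seen. The members and gene lists were chosen with earlier results of these data known. The results of 1 further member, and the planned pair that holds it, are not reported here. The labels do not say how mice were caged. The p-values of the variance test set the spread over the samples of these 10 mice against that of the pool over arrays. The former includes tissue sampling and RNA preparation, and each was measured in 1 dye. The p-values of the F test compare slides, and those of the pairs rest on 6 mice.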

Additional observations from a re-analysis of the deposited data

Results flagged for a closer look

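A mouse counted as far from the others when its gap to the nearest one exceeded Dixon's 95% critical value for 10 values, as a share of the range. This was tested on 77 genes or probes, and chance alone gives about 1 in 20 where all 10 values come from 1 normal distribution. Where the mice set apart lie far from the others, the gap between the sets takes much of the range. A single far mouse is then hard to flag, so a gene without a flag says little. None of the 15 member probes had such a mouse, and 3 other pathway genes did. *Atg4b*, a protease that processes LC3, had mouse 1 highest, at a log2 ratio of 0.32, and a gap share of 0.521. *Tomm7*, a subunit of the outer membrane import pore, had mouse 4 lowest at -0.35 and a gap share of 0.526. *Snap29*, which helps autophagosomes fuse with lysosomes, had mouse 3 lowest at -0.23 and a gap share of 0.566.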

How the results depend on the processing

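No paired analysis was possible because the series has 1 group. Member probes with a larger variance in Cy5 numbered 13, and 11 to 13 under no background subtraction, the scanner software's processed signals, either filter and the F test, 8 with slide as a block, 8 with median centring, 3 with no normalization between arrays (all *Bnip3*) and 1 in the 6 mice that do not lie apart, a set chosen after the values were seen. Leaving out 1 mouse gave 10 to 13. Over all probes the count was 14974, with 10250 with slide as a block, 9510 under median centring, 4707 with none between arrays, 3433 in the 6 mice, and 13450 to 14412 without 1 mouse. The count for slides stayed at 0 in all 4 alternatives. Genes whose 4 lowest values lay in mice 4 to 7 numbered 5, and 0 under median centring, 3 relative to each array's median after it and 3 with the deposited values. This order was compared across settings after the values were seen.

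The mean log2 ratios of the members moved by less than their SD in 113 of 120 recomputations, and the other 7 were under median centring, which moved the median of all expressed probes to 0.36. Of the 9 pairs none passed, except 1 under median centring (*Map1lc3a* with *Map1lc3b*, r = 0.997, exact permutation adjusted p = 0.025). Signs turned without the 2 farthest mice for *Sqstm1* with *Map1lc3b* (0.58), *Bnip3* with hypoxia (0.93), *Sqstm1* with macrophage (-0.33) and *Bnip3l* with red blood cell (-0.14). *Sqstm1* with *Map1lc3b* also turned with median centring (0.89) and the deposited values (0.18), and *Bnip3* with hypoxia with the scanner's log ratio (0.42), median centring (0.90), the mean of all probes (0.19) and the deposited values (0.61). The cause was not tested.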
